A study of Mus musculus with 12 samples.

Results

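The replication-dependent histone genes are the short, mostly intronless genes that supply the bulk of histone protein when DNA is copied. They were taken here as every protein-coding row whose symbol begins with Hist1h, Hist2h, Hist3h or Hist4h, which gave 67 genes of the 55536 rows in the table. The pattern matched 70 rows, and 3 of them, annotated as pseudogenes, were left out. The 67 genes comprised 6 for the linker histone H1, 18 for H2A, 18 for H2B, 12 for H3 and 13 for H4. By position, 54 lay in the Hist1 cluster on chromosome 13, 10 in Hist2 on chromosome 3, 2 in Hist3 on chromosome 11, and Hist4h4 stood alone on chromosome 6.

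RNA was measured in 11 mouse tumours and 1 skeletal muscle. The 5 translocation tumours came from mice with the genotype HprtCre; Ewsr1-loxP; Atf1-loxP, in which Cre from the Hprt locus can join the mouse Ewsr1 and Atf1 genes. The 6 Rosa26 tumours carried Rosa26-LSL-EWSR1-ATF1, a fusion transgene at the Rosa26 locus behind a stop cassette that Cre removes. EWSR1-ATF1 is the fusion of clear cell sarcoma, and the muscle was labelled WT. The tumours received no drug, ages were not used here, and the labels do not say whether each library was of its own animal, and p-values then measure only how these libraries vary, in part perhaps technically. Libraries were depleted of ribosomal RNA and made with a stranded kit, so RNA without a poly(A) tail was kept.

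Core histones H2A, H2B, H3 and H4 form the octamer around which DNA is wound, and H1 binds the linker DNA between octamers. Their replication-dependent messages are the only ones in animal cells that usually end in a conserved stem-loop in place of a poly(A) tail. Slbp binds that stem-loop, and the U7 snRNP with its proteins Lsm10 and Lsm11 directs the cut that forms the end. The messages are transcribed through the coactivator Npat and accumulate in S phase, and they are degraded when replication stops. Some of the genes can also give polyadenylated messages in cells that no longer divide.

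The stem-loop was searched in the annotated transcripts, in their direction, as the arm GGNNCT, the loop TTTN and the arm AGNNCC without gaps. It was found in 44 of the 67 genes (65.7%) and in 34 of 21884 other protein-coding genes (0.155%). By class it was present in 4 H1, 11 H2A, 10 H2B, 8 H3 and 11 H4 genes. For the remaining genes these letters are not in the annotated transcripts, from which nothing is drawn about their ends. The 44 sites had 6 spellings, of which the most frequent occurred in 26 genes. The sites below, from GENCODE M21 transcripts on GRCm38, show 1 gene per spelling, with the 16 bases of the motif in capitals and 5 bases on either side.
Hist1h1c, chr13:23739512-23739527, plus strand: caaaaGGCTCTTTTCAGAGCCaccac
Hist1h4c, chr13:23698089-23698104, minus strand: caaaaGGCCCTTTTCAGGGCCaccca
Hist1h2bb, chr13:23747203-23747218, plus strand: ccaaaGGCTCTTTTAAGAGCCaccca
Hist2h4, chr3:96262939-96262954, minus strand: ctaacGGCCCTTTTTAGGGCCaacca
Hist1h4j, chr13:21735437-21735452, plus strand: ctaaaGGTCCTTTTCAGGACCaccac
Hist2h2ac, chr3:96220418-96220433, minus strand: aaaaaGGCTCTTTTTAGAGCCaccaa
Each spelling keeps a stem whose arms pair with each other around a loop of TTTN, and the spellings differ within the stem or at the last base of the loop.

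Promoters of 62 of the 67 genes were matched to RefSeq windows of GRCm38.p6, running from 250 bases before to 50 after the start. On both strands, CCAAT was present in 53 of the 62 windows (85.5%) against 37.4% of 32851 promoters of all genes, and TATAA in 49 (79.03%) against 24.9%. The octamer ATTTGCAT, which Oct1 is known to bind, was present in 13 windows (20.97%) against 1.74%. All 13 belonged to H2A and H2B genes, 7 and 6 of them. CCAAT was in every matched H1, H2A, H2B and H3 window but in 3 of 12 H4 windows, and TATAA was in 11 of 12 H4 windows. Divergent H2A and H2B neighbours share part of a window, so these counts are not independent of each other. The letters found are a description and do not show that a factor binds. Windows are shown for Hist1h1a and Hist1h1c, linker histone genes whose levels differed from each other in these tumours, for Hist2h2bb, the H2B gene with the highest level per kb, and for Hist1h4h, the H4 gene with the highest. These 3 motifs, or their reverse complements, are in capitals.
Hist1h1a, chr13:23763418-23763717, plus strand: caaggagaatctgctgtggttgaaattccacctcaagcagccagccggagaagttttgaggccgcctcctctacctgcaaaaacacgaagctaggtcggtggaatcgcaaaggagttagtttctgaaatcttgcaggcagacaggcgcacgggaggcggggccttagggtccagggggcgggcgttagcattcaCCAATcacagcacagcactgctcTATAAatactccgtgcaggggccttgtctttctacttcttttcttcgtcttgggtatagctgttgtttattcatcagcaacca
Hist1h1c, chr13:23738557-23738856, plus strand: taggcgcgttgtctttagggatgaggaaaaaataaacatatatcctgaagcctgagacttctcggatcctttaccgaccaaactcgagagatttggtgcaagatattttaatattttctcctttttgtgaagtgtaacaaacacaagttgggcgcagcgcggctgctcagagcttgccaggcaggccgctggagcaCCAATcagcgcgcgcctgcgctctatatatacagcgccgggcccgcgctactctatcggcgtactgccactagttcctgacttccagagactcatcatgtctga
Hist2h2bb, chr3:96269450-96269749, plus strand: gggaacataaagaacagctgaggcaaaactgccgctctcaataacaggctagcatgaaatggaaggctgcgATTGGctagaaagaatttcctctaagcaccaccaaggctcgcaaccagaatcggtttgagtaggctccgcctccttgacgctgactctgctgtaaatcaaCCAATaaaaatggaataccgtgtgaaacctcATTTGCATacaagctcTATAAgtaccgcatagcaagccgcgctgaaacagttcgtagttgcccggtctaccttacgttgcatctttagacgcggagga
Hist1h4h, chr13:23530794-23531093, plus strand: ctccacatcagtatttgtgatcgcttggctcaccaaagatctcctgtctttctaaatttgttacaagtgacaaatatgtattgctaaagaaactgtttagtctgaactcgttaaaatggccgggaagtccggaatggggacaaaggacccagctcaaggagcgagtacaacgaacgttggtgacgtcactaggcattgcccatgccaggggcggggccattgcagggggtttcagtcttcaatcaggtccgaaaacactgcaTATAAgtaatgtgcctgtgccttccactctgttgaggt
Hist1h1a and Hist2h2bb carry both CCAAT and TATAA, Hist2h2bb also the octamer, Hist1h1c CCAAT without TATAA, and Hist1h4h TATAA without CCAAT.

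Total counts ran from 2963088 to 21248636 in the translocation tumours and from 6817005 to 21493629 in the Rosa26 tumours, with 25037628 in the muscle. In translocation tumour 2, 37.8% of counts fell in genes holding ribosomal sequence, and 30.0% in Rosa26 tumour 4, and skeletal muscle genes took 8.76% in Rosa26 tumour 1. In translocation tumour 2, the shallowest library, 41 of the 67 histone genes had fewer than 10 counts. Translocation tumour 5 stood apart from the others in the histone genes, and results that it moved are given with and without it. Its title shares a leading number with that of translocation tumour 2, while sex-linked genes read as male in tumour 5 and as female in tumour 2. The titles of Rosa26 tumours 5 and 6 differ in the last digit, and those of translocation tumour 1 and the muscle share a leading number, which the labels do not explain. The genes are hard to tell apart by short reads. For 45 of the 67 genes another member of the class was at least 95% identical over at least 80% of the shorter transcript, and 34 genes had fewer than 50% of their 50-base stretches unique among annotated transcripts. No source used here gives how reads that match several places were counted, so values of single genes with such a partner are uncertain. Sums by class do not depend on how such reads were split within a class, but would lose them if they were dropped. H1 genes had 68.0% to 100% of these stretches unique, more than most genes of the other classes. Shares between classes are therefore uncertain too. Of the 67 genes, 5 had no unique 50-base stretch. Hist2h2aa1 and Hist2h3c1 among them had 0 counts in every library. Hist2h2bb, the H2B gene with the highest level per kb, was another, and it overlaps Gm20628 and Gm42743, so its values are uncertain although it has no near-identical partner in its class. In all, 24 of the 67 genes overlapped another annotated gene. All 18 H2A genes were among them, so this limit weighs most on the H2A sums. Hist1h2be of class H2B overlaps Hist1h1e of class H1, so that uncertainty crosses classes.

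Histone RNA was a small share of counts in 10 of the tumours and over a percent in translocation tumour 5. The 67 genes took 0.127%, 0.105%, 0.166%, 0.105% and 1.16% of counts in translocation tumours 1 to 5. Among the Rosa26 tumours they took 0.0866%, 0.144%, 0.102%, 0.0582%, 0.157% and 0.136%, and in the muscle 0.0251%. The exact binomial interval of translocation tumour 5 was 1.16% to 1.17%, for counting error only. Apart from that tumour the genotypes overlapped, with 0.126% ± 0.0289 (SD, n = 4) in the translocation and 0.114% ± 0.0382 (SD, n = 6) in the Rosa26 tumours. With it the translocation mean was 0.333% ± 0.465 (SD, n = 5). Every tumour lay above the muscle, the lowest by a factor of 2.32. After TMM scaling over the 12 libraries, which the tests against muscle use, the muscle share was 0.0613% and that factor was 1.13. In whole tissue, fewer cells that make histone RNA and less of it per cell cannot be told apart.

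**Figure D1:**
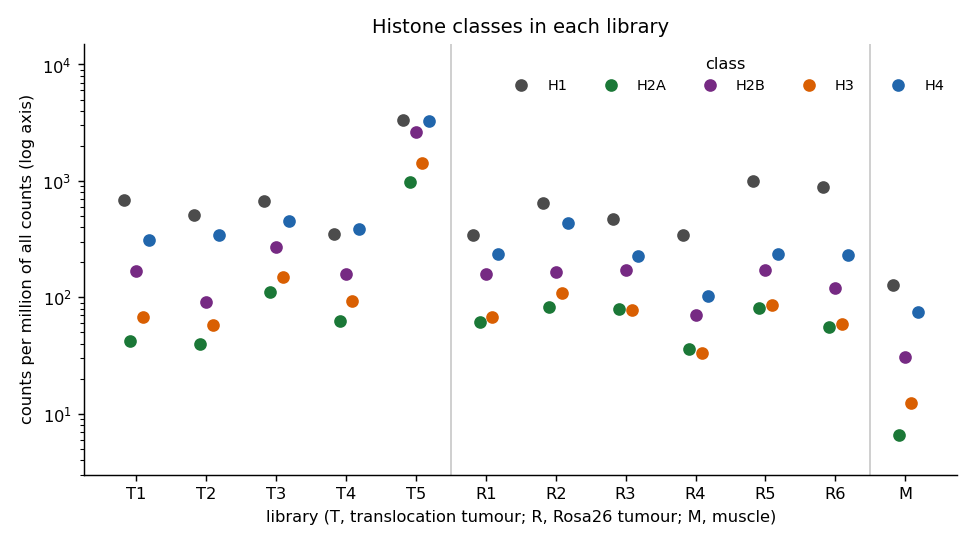
CPM of all counts (log axis) summed over each histone class in 5 translocation tumours (T), 6 Rosa26 tumours (R) and 1 muscle library (M), 1 point per class and library. All 5 classes are highest in T5, where H1 reached 3362 and H4 3241, and lowest in M. After TMM scaling over the 12 libraries M lay above 2 tumours in H1 and above 1 in H4.

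All classes were highest in translocation tumour 5, the core histones by a larger ratio than H1. H1 genes summed to 3362 CPM there (counts per 1000000 of the library's counts), against 590.6 ± 231.7 in the other 10 tumours (SD, n = 10), a ratio of 5.69. The corresponding ratio was 15.0 for H2A, at 979, 17.0 for H2B, at 2620, and 17.9 for H3, at 1435 CPM. H4 genes summed to 3241 CPM, 10.9 times the mean of the other 10 tumours. Among those 10, translocation tumour 3 was the highest in H2A (112), H2B (270.0), H3 (149) and H4 (457), and Rosa26 tumour 5 in H1 (999.8). Rosa26 tumour 4, with its large share of ribosomal sequence, was the lowest in all 5 classes. These 2 orders hold for unscaled counts, and after TMM scaling over the 12 libraries translocation tumour 2 was the highest of the 10 in H4 and Rosa26 tumour 4 the lowest in H2B, H3 and H4 alone. H1 took 53.0% ± 10.97 of the histone counts in the Rosa26 tumours (SD, n = 6) and 28.9% in translocation tumour 5.

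The linker histone genes differed from each other. Hist1h1c, which encodes H1.2, was 552, 430.2, 283, 107.3 and 721.5 CPM, after TMM scaling over the 11 tumours as for all single genes from here, in translocation tumours 1 to 5. In the Rosa26 tumours it ranged from 155 to 733 CPM with a median of 278. Its highest value was thus in Rosa26 tumour 5, and the groups overlapped over nearly their whole range. Hist1h1a, which encodes H1.1, was 27.6, 128, 145, 68.1 and 1584 CPM in the translocation tumours and 38.4 to 152 CPM with a median of 43.1 in the Rosa26 tumours. Translocation tumour 5 exceeded every other tumour in Hist1h1a, and the remaining tumours of both genotypes overlapped. The makeup of H1 counts therefore differed widely between libraries. Hist1h1c made 83.7%, 57.3%, 47.7%, 33.1% and 19.6% of H1 counts in translocation tumours 1 to 5, 41.5% to 83.7% in the Rosa26 tumours, and 84.9% in the muscle. Hist1h1a made 43.1% in translocation tumour 5, 4.19% to 24.4% in the other 10 and 1.45% in muscle. Hist1h1b, which encodes H1.5, was 8.16, 1.48, 36.6, 30.7 and 539 CPM in the translocation tumours and 15.1 to 47.4 CPM, median 22.6, in the Rosa26 tumours. Hist1h1d and Hist1h1e, which encode H1.3 and H1.4, reached 433 and 393 CPM in translocation tumour 5 and at most 119 and 91.9 CPM elsewhere. Hist1h1t, the testis linker histone, reached 8.65 CPM in translocation tumour 5 and 3.22 CPM in translocation tumour 1, while the other 9 had at most 0.262 CPM.

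**Figure D2:**
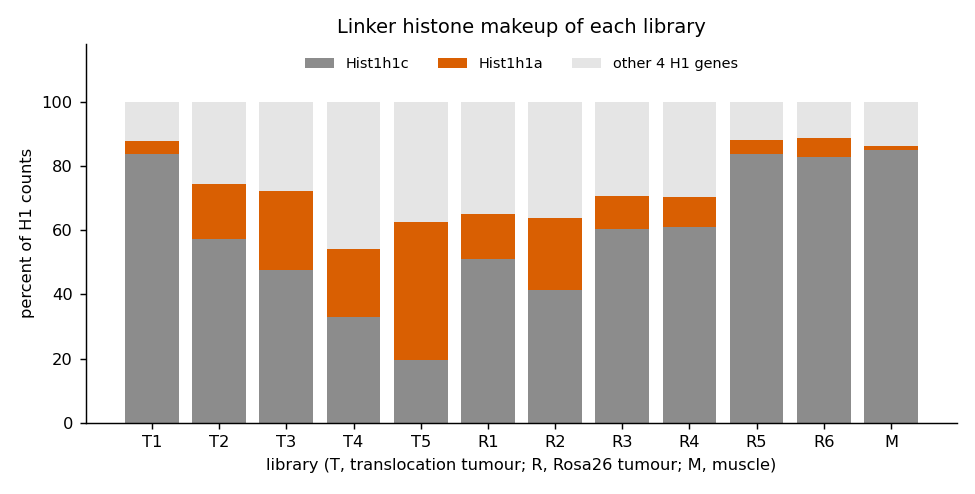
Percent of all H1 counts in each library that fell in Hist1h1c, in Hist1h1a and in the other 4 H1 genes, for translocation tumours (T), Rosa26 tumours (R) and muscle (M). Hist1h1c made 84.9% of H1 counts in M and 19.6% in T5, and Hist1h1a 1.45% and 43.1%.

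Over single genes, translocation tumour 5 was the highest tumour in 54 of the 56 histone genes that passed the filter on low counts (28.4% of all genes tested), and it was at least 2-fold above every other tumour in 51 (11.4% of all genes tested). The exceptions were Hist1h1c, where it ranked 2 of 11, and Hist2h2be, a gene of the Hist2 cluster that encodes H2B, where 1.65 CPM gave it rank 8. The median ratio of translocation tumour 5 to the mean of the other 10 was 15.4 over these 56 genes and 0.818 over all genes tested. The ratio ran from 0.606 for Hist2h2be to 134 for Hist1h2bp, which was 75.2 CPM in tumour 5 and at most 1.63 CPM in the other 10. By class the median ratio was 7.57 for H1, 15.4 for H2A, 17.8 for H2B, 21.8 for H3 and 12.9 for H4. Hist2h2bb, the H2B gene without a unique stretch, was 18.3, 31.2, 47.9, 31.8 and 624 CPM in the translocation tumours and 11.1 to 31.4 CPM, median 18.4, in the Rosa26 tumours. Hist1h3c, an H3 gene, was 15.4, 5.44, 30.3, 16.7 and 306 CPM against 6.86 to 24.3 CPM, median 10.7. In both genes translocation tumour 5 lay far above the other 10, among which the genotypes overlapped. These ratios describe 1 library and carry no test.

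**Figure D3:**
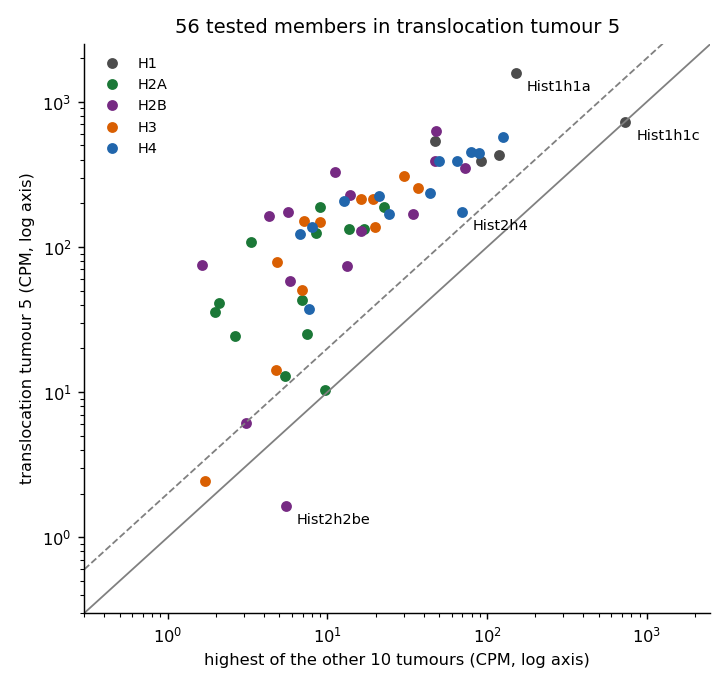
Level of each of the 56 tested histone genes in translocation tumour 5 against the highest of the other 10 tumours, in CPM on log axes, coloured by class. The solid line marks equal levels and the dashed line a 2-fold difference: 51 genes lie above the dashed line, while Hist1h1c and Hist2h2be lie under the solid line.

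Position in the genome went with the size of that ratio. The Hist1 genes fall into blocks more than 100000 bases apart. In the block at chr13:21715763-21837530 the median ratio was 32.3 over 14 tested genes, and at chr13:22035164-22043676 it was 32.9 over 5. In the largest block, chr13:23531050-23764406, it was 12.5 over 28 tested genes, and in the Hist2 cluster, chr3:96219865-96270132, it was 8.24 over 7. Transcript length went the same way, with a median ratio of 7.82 for the 15 tested genes of over 1 kb of exon and 21.6 for the 41 shorter ones. So did near-identical copies, at 9.61 for the 18 tested genes without a near-identical partner and 21.7 for the 38 with one. The ratio divides by the level in the other 10 tumours, which was low for the gene with the highest ratio, Hist1h2bp, at a median of 0.539 CPM. Level also went with copies. Median counts over all libraries were 9022 for the 22 genes without a near-identical partner and 3236 for the 45 with one, tested or not. These splits overlap with each other and with level, and none was tested against another.

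Genes outside the family were also high in that library. The 24 genes of the S phase and replication list summed to 2970 CPM in translocation tumour 5 and 333 to 580.5 CPM in the other 10, and the 18 mitosis genes to 3036 CPM against 191 to 547 CPM. Tumour 5 was the highest tumour for all 24 and all 18. Pcna, the replication clamp, was 325.5 CPM against 11.8 to 64.8 CPM in the other 10 tumours. Mki67, a proliferation marker, was 233 CPM against 28.2 to 154 CPM. Slbp was 61.6 CPM against 20.1 to 40.5 CPM, a smaller excess than that of the histone messages it binds. Nasp, a histone chaperone, was 196 CPM against 16.8 to 24.4 CPM, and Chaf1b, a subunit of the assembly factor CAF-1, was 60.3 CPM against 2.89 to 7.03 CPM. Summed markers of stromal and immune cells were low there, though not every gene was. The 7 fibroblast and collagen genes summed to 231.0 CPM in translocation tumour 5 and 2091 to 107157 CPM in the other 10, and the 10 macrophage genes to 731.5 CPM against 940.2 to 3431 CPM. Of the macrophage genes Cd68, Lyz2, Mrc1 and Fcgr1 lay within the range of the other 10. Adgre1, Csf1r, C1qa, C1qb and C1qc were lowest in translocation tumour 5. Cd14, at 53.5 CPM against at most 28.25 CPM, was highest in translocation tumour 5. The 10 T and NK cell genes summed to 7.67 CPM there, with Cd3d and Trac at 0 counts, against 9.90 to 128.6 CPM in the other 10. Lck, at 4.27 CPM, was above translocation tumours 1 to 4 (1.77 to 2.97 CPM). The 7 B and plasma cell genes summed to 1.44 CPM, with Ms4a1 and Mzb1 at 0, against 5.13 to 868.8 CPM. Each of Cd3d, Trac, Ms4a1 and Mzb1 also had 0 in another tumour. The 9 melanocyte genes summed to 532.5 CPM against 14.7 to 71.6 CPM. Most of that sum was Dct, an enzyme of melanin synthesis, at 332 CPM against at most 27.7 CPM in the other 10, and Mitf, the melanocyte transcription factor, at 180.5 CPM against at most 40.8 CPM. The defining genes Tyr, Tyrp1, Mlana and Slc45a2 had 0 counts in translocation tumour 5, and no tumour exceeded 0.495 CPM in any of them. The part of any of these in the histone values was not tested.

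The series sets the translocation against the Rosa26 transgene, and by that comparison 1 histone gene passed the test. Hist2h4, an H4 gene of the Hist2 cluster (chr3:96261682-96263311, GRCm38), was 23.9, 69.8, 23.5, 27.6 and 173.5 CPM in translocation tumours 1 to 5. The Rosa26 tumours ran from 6.56 to 21.8 CPM with a median of 9.40. The groups did not overlap, though the lowest translocation and the highest Rosa26 tumour were close. It was the only tested histone gene without overlap, as were 5.18% of all genes tested, 2.44% with the translocation group higher. The log2 fold change of translocation over Rosa26 was 2.54 ± 0.57 (SE, edgeR quasi-likelihood test, adjusted p = 0.0412). Without translocation tumour 5 it was 1.70 ± 0.41 (SE, edgeR adjusted p = 0.0434). Its annotated transcripts have 98.99% of 50-base stretches unique and no near-identical partner. Leaving out translocation tumour 1 or 2 ended the call (edgeR adjusted p = 0.0561 and 0.0502), as did leaving out any Rosa26 tumour except number 2 (edgeR adjusted p = 0.0627 to 0.119) and summing Rosa26 tumours 5 and 6 as 1 sample (edgeR adjusted p = 0.0936). With translocation tumours 2 and 5 and Rosa26 tumour 4 all left out, the log2 fold change was 1.19 and was not called (edgeR adjusted p = 0.111).

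The other tested histone genes did not pass. Of the 56, 1 was called higher (1.14% of all genes tested) and 0 lower (1.56%, with 0 also at an unadjusted p under 0.05), by the edgeR test with p-values adjusted after Benjamini and Hochberg. In either direction edgeR called 2.7% of all genes tested. An unadjusted p under 0.05 was reached by 43 of them, against 24.8% of all genes tested. The log2 fold change was positive for 55 of 56, with a median of 2.30 against 0.07 over all genes tested. DESeq2's Wald test called 8 histone genes higher and gave no adjusted p for 32, limma voom with quality weights called 3, and edgeR with sex as a covariate called 26. Each of these settings also called far more of all genes than the 460 of 17021 in the main test. Those counts are given with the processing checks at the end. The DESeq2 and limma voom calls are therefore not read as a result about the histone genes. Only 1 translocation tumour read as male, and it was tumour 5, so sex and that library cannot be told apart within the translocation group. The 11 genes that the filter removed included Hist3h2ba, an H2B gene with 97.5 CPM in translocation tumour 5 and 2.34 CPM at most in any other, and 10 genes with 0 to 213 counts over all 12 libraries.

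Leaving out translocation tumour 5 took away most of the difference. The median log2 fold change of 57 tested histone genes was then 0.24, with 35 positive and 22 negative, against 0.00 over all genes tested. Hist2h4 alone was called higher (1.68% of all genes tested, and 4.27% in either direction) and 0 histone genes were lower (2.59%), while 6 higher and 1 lower had an unadjusted p under 0.05 (23.2% of all genes tested). The class with the largest share of positive values was H4, at 11 of 13 with a median of 0.58, and the summed H4 level was 375 ± 63.1 CPM of all counts in the remaining translocation tumours (SD, n = 4) and 245 ± 108 in the Rosa26 tumours (SD, n = 6). The other class sums were closer between the genotypes, with ratios of 0.900 for H1, 0.974 for H2A, 1.21 for H2B and 1.27 for H3, against 1.53 for H4. Hist1h4c, an H4 gene, was 83.9, 126, 88.1, 74.0 and 569 CPM in translocation tumours 1 to 5 and 19.1 to 99.8 CPM, median 34.2, in the Rosa26 tumours. The Rosa26 value that overlapped the translocation range was that of tumour 2, and the log2 fold change without translocation tumour 5 was 1.06 ± 0.40 (SE, edgeR adjusted p = 0.140). Hist1h2bf, an H2B gene, went the other way at 0.644, 0.495, 1.59 and 1.07 CPM in translocation tumours 1 to 4 against 1.88 to 3.09 CPM, median 2.25, in the Rosa26 tumours. Besides Hist2h4 this was the only gene of the 57 without overlap (7.43% of all genes tested, 3.38% with the translocation group higher), and the log2 fold change was -1.19 ± 0.43 without a call (SE, edgeR adjusted p = 0.126).

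**Figure D4:**
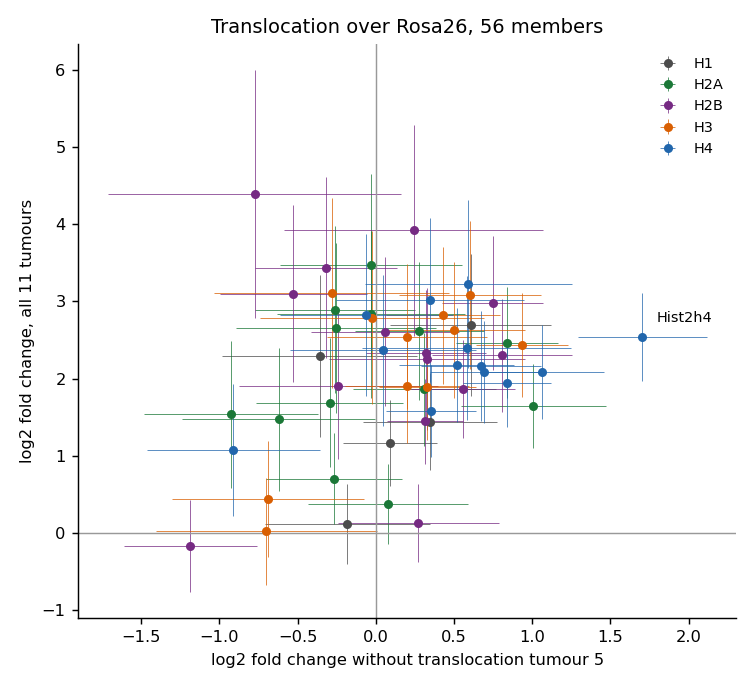
Log2 fold change of translocation over Rosa26 tumours for 56 histone genes, with all 11 tumours (vertical) and without translocation tumour 5 (horizontal), coloured by class, with standard errors as bars. Hist2h4 lies at 2.54 and 1.70, and the median of the 56 genes is 2.30 with and 0.26 without that tumour.

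Rosa26 tumour 2 was high within its group in several of these genes. It was the highest Rosa26 tumour in Hist2h4 (21.8 CPM), Hist1h1a (152 CPM), Hist1h1b (47.4 CPM), Hist1h3c (24.3 CPM) and Hist1h4c (99.8 CPM), and in Hist4h4, an H4 gene, it reached 64.4 CPM against 4.57 to 19.7 CPM in the other Rosa26 tumours. In Hist1h1a, Hist1h1b and Hist4h4 it also lay above each of translocation tumours 1 to 4. Other short RNAs without a poly(A) tail were also high in that tumour. Rn7sk, the RNA of the 7SK particle, was 24928 to 32688 CPM in the translocation tumours, 25136 CPM in Rosa26 tumour 2 and 6266 to 11542 CPM in the remaining Rosa26 tumours. The 6 genes of that list summed to 41019 to 71315 CPM in translocation tumours 1 to 4, to 53242 CPM in Rosa26 tumour 2 and to 14133 to 17553 CPM in the other Rosa26 tumours. None of its 5 tested genes was called by edgeR, where 3 had an unadjusted p under 0.05 (24.8% of all genes tested). Of the 5, 3 passed the DESeq2 Wald test and 4 limma voom. Both tests also called far more of all genes than edgeR, with counts given at the end. Erythroid genes also differed but overlapped, summing to 321 to 12577 CPM in translocation tumours 1 to 4 and 4.38 to 1061 CPM in the Rosa26 tumours. The highest of these, Rosa26 tumour 1, lay above translocation tumours 2 to 4, and translocation tumour 5 was at 167 CPM. Of the 6 erythroid genes tested, edgeR called 0. Of 9 tested T and NK cell genes it called 2 lower and 0 higher (1.56% and 1.14% of all genes tested). The part of these in the Hist2h4 and H4 values was not tested.

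In the machinery around histone RNA, 1 gene passed. Lsm10, the U7 snRNP protein, was 9.78, 11.4, 10.9, 11.98 and 13.7 CPM in translocation tumours 1 to 5 and 2.86 to 6.24 CPM, median 4.70, in the Rosa26 tumours. The groups did not overlap, with or without translocation tumour 5, as was so for 5.18% and 7.43% of all genes tested. Its log2 fold change was 1.28 with an SE of 0.29 (edgeR adjusted p = 0.0412), and 1.20 without translocation tumour 5 (edgeR adjusted p = 0.0371). Leaving out translocation tumour 1, 3 or 4 or any Rosa26 tumour except number 2 ended this call (edgeR adjusted p = 0.0504 to 0.114), as did no filter (edgeR adjusted p = 0.118), muscle in the fit (0.0583) and Rosa26 tumours 5 and 6 summed (0.091). Of the 15 processing and transcription genes, 1 rose and 0 fell, and 3 had an unadjusted p under 0.05, where edgeR called 2.7% of all genes tested in either direction and 24.8% had such a p. The median was 0.28, which turned to -0.055 without translocation tumour 5, and the values were 0.63 for Slbp and 0.28 for Npat (edgeR adjusted p = 0.181 and 0.629), and 0.33 and 0.064 without that tumour. Lsm11, the partner of Lsm10, had -0.12, and -0.15 without it. Sympk, also of these 15, was lower without overlap in translocation tumours 1 to 4, at 49.2 to 71.3 CPM against 72.9 to 97.4 CPM in the Rosa26 tumours. Of 12 histone chaperone genes 0 passed, with 2 at an unadjusted p under 0.05 and a median of 0.45, which turned to -0.12 without translocation tumour 5. Of 24 S phase genes 0 passed, with 11 at an unadjusted p under 0.05 and a median of 1.12, which was 0.05 without translocation tumour 5, and DESeq2 and limma voom each called 3. Of 18 mitosis genes 0 passed, with 8 at an unadjusted p under 0.05 and a median of 1.42, which turned to -0.37 without translocation tumour 5. Without that tumour 3 of the 18 did not overlap, Mki67, Cenpe and Cenpf, all lower in the translocation group. Mki67 was 28.2 to 60.9 CPM in translocation tumours 1 to 4 and 62.6 to 154 CPM in the Rosa26 tumours. DESeq2 and limma voom called 0 chaperone and 0 mitosis genes. Both called far more of all genes than edgeR, with counts given at the end, so their 3 S phase calls are not a result about that list.

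Replacement and variant histones, several of which are also made outside S phase, had positive medians with and without translocation tumour 5. The median log2 fold change of the 11 genes was 1.21, and 0.55 without translocation tumour 5. With all tumours 10 of the 11 were positive, and without translocation tumour 5 only 6 were, with 5 negative. H2afy2 went the other way, with overlap, at a median of 6.66 CPM in the translocation and 12.75 CPM in the Rosa26 tumours. H2afz, which encodes H2A.Z, was 77.1, 93.1, 77.6, 59.6 and 620.4 CPM in translocation tumours 1 to 5 and 35.9 to 60.9 CPM, median 37.6, in the Rosa26 tumours. Only Rosa26 tumour 2 reached into the translocation range. It missed the threshold with all tumours (log2 fold change 2.13, edgeR adjusted p = 0.0669) and passed without translocation tumour 5 (0.85, edgeR adjusted p = 0.0464), where it was the only call of the list. For H3f3a and H3f3b, the genes for H3.3, the log2 fold change was 1.23 and 0.88 (edgeR adjusted p = 0.112 and 0.161), and 0.79 and 0.55 without translocation tumour 5. H1f0, the linker histone of cells at rest, was 128, 108, 312, 152 and 264 CPM in the translocation tumours and 49.5 to 134 CPM, median 70.03, in the Rosa26 tumours (log2 fold change 1.23, edgeR adjusted p = 0.0736, and 1.09 without translocation tumour 5). Over the 11 genes 0 passed the edgeR test with all tumours, with 8 at an unadjusted p under 0.05 (24.8% of all genes tested), and DESeq2 and limma voom called 3 each. These tests also called far more of all genes than edgeR, with counts given at the end.

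Set beside muscle, most histone genes were higher in the tumours, and a small group was not. The muscle was 1 library, assumed in the fit to vary like the tumours, and CPM values here are scaled over all 12 libraries. Of 62 tested histone genes the log2 fold change of tumours over muscle was positive for 60, with a median of 3.38 against 0.70 over all genes tested. Because the muscle group is 1 library, the filter kept genes that were high enough in any 1 library. Hist1h2bq and Hist1h2br, with 24 and 22 counts over all libraries, passed it only through translocation tumour 5. Their positive sign was thus set by the filter, and they were not tested without that tumour. Every tumour was above the muscle in 28 of the 62 (19.1% of all genes tested). With all tumours in the fit 1 gene passed as higher, with the fold change also required to be at least 1 on the log2 scale (5.25% of all genes tested) and 0 were lower (11.4%), with 11 higher and 0 lower at an unadjusted p under 0.05, against 15.2% and 16.6% of all genes tested. That gene was Hist1h2ae, an H2A gene with 0 counts in the muscle and 1.40 to 38.8 CPM, median 3.52, in the tumours. It was at least 22.5-fold higher in the tumours, or 11.5-fold without translocation tumour 5, against a floor of 3 counts in the muscle library (edgeR adjusted p = 0.044). Leaving out translocation tumour 2 or any Rosa26 tumour except number 4 ended this call (edgeR adjusted p = 0.051 to 0.062).

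The number of calls depended on translocation tumour 5. Without it 19 of 60 tested genes rose against muscle (11.7% of all genes tested) and 0 fell (16.2%), while 24 higher and 1 lower had an unadjusted p under 0.05 (20.4% of all genes tested in each direction), with a median log2 fold change of 2.33 against 0.64 over all genes tested. In each of the 19 all 10 tumours were above the muscle. They came from every class, with 2 of H1, 4 of H2A, 5 of H2B, 4 of H3 and 4 of H4. Hist1h4a, an H4 gene, was 1.17 CPM in the muscle and 10.3 to 352.5 CPM, median 28.2, in the tumours, a log2 fold change of 4.58 ± 0.93 without translocation tumour 5 (SE, edgeR adjusted p = 0.00408). Hist1h1a was 4.49 CPM in the muscle and 24.7 to 1430.0 CPM, median 40.8, in the tumours (3.92 ± 1.17, edgeR adjusted p = 0.028). Hist1h3c was 0.586 CPM in the muscle, 6 counts, and 4.82 to 276 CPM in the tumours (4.48 ± 1.13, edgeR adjusted p = 0.0124). Hist2h2bb was 4.69 CPM in the muscle and 10.4 to 564 CPM in the tumours (2.28 ± 0.66, edgeR adjusted p = 0.0239).

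In a few genes the muscle was at the level of the tumours. Hist1h1c was 263 CPM in the muscle, and the median tumour was also at 263, with 5 of 11 tumours above the muscle. It made 42.9% of all histone counts in the muscle. Hist1h2bc, an H2B gene, was 47.5 CPM in the muscle and 26.6 to 314 CPM, median 40.2, in the tumours, 3 of them above the muscle. Hist1h4c was 72.6 CPM against a tumour median of 68.2, and Hist1h3e, an H3 gene, 16.2 against 10.1. Hist2h2ab, an H2A gene, was 2.34 CPM against a tumour median of 2.01, and Hist1h2be, an H2B gene, 9.47 against 10.3. These 6 had log2 fold changes of 0.49, 0.37, 0.20, 0.16, 0.28 and 1.05 without a call. Leaving out translocation tumour 5 gave 0.34 for Hist1h1c and turned the others to -0.20, -0.31, -0.62, -0.039 and -0.22. With all tumours only Hist1h4i, an H4 gene, and Hist2h2be had negative values, at -0.97 and -0.90 (edgeR adjusted p = 0.623 and 0.456). Without translocation tumour 5 these were -1.97 and -0.83 (edgeR adjusted p = 0.0606 and 0.436). Hist1h4i was 11.7 CPM in the muscle and 0.940 to 33.5 CPM in the tumours, with only translocation tumour 5 above the muscle, and Hist2h2be was 4.49 CPM against 1.10 to 5.202 CPM. Genes with over 1 kb of annotated exon had a median log2 fold change of 1.37 over 17 tested and shorter genes 3.81 over 45, which were 0.80 over 15 and 2.68 over 45 without translocation tumour 5. Of the other lists, 2 of 24 S phase genes and 0 of 18 mitosis genes passed as higher by edgeR, where 8 and 10 were higher at an unadjusted p under 0.05, and 10 and 14 passed as higher and 1 S phase gene as lower without translocation tumour 5. For Slbp the rise was 2.03 in log2 units (edgeR adjusted p = 0.0334), from 6.45 CPM in the muscle to 18.6 to 55.7 CPM in the tumours. It was not typical of the 15 processing and transcription genes, of which 1 passed as higher and 2 as lower by edgeR (5.25% and 11.4% of all genes tested). Of the 15, 9 had positive values. They summed to 1837 CPM in the muscle and to 417.5 to 1552 CPM in the tumours.

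**Figure D5:**
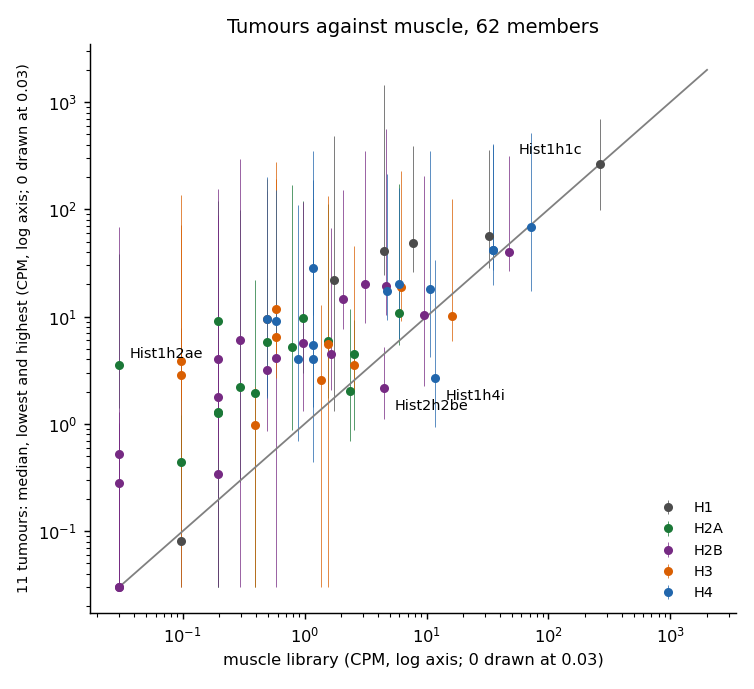
Level of 62 histone genes in the muscle library (horizontal) and in the 11 tumours (vertical: median, with a line from the lowest to the highest), in CPM scaled over 12 libraries on log axes, with 0 drawn at 0.03. The line marks equal levels: Hist1h1c lies on it at 263 CPM, Hist1h4i and Hist2h2be lie under it, and most genes lie above it.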

How the data were processed

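RNA sequencing of 5 translocation tumours, 6 Rosa26 tumours and 1 muscle library was deposited by the authors as whole-number counts per Ensembl gene, not normalized, and 0 columns belonged to other samples. Per the submitters' processing notes the tools were STAR 2.7.5a, cutadapt, RSEM, featureCounts and DESeq2, on the build mm10. No source used here gives the annotation release, the strand setting or how reads matching several places were treated. Symbols, positions and transcripts were taken from GENCODE M21, also on this build, which named 55450 of 55536 identifiers, and promoters from RefSeq.

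Groups followed the genotype label, and replicate numbers follow accession order. The genotypes were compared with edgeR 4.0.16 in R 4.3.3 on all genes of the 11 tumours (TMM scaling, filterByExpr at a minimum count of 10, robust quasi-likelihood tests, Benjamini-Hochberg adjustment over all genes tested at 0.05). Muscle entered a further fit over the 12 libraries, as both tumour group means averaged less muscle, where calls also needed a log2 fold change of 1 or more in size. Shares of counts and sums by class carry no test, and binomial intervals are exact (Clopper-Pearson, 95%). Intervals and floors cover counting error only. Xist and Y-linked genes gave the sex of each library. The tests were checked on simulated counts.

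Named were every called histone gene, the 3 highest per class in CPM per kb, the lowest and highest log2 fold change per class, and the 3 largest and 3 smallest changes against muscle. From the lists, called genes, up to 4 by adjusted p and a few fixed genes were named. Of these, 1 is not reported here. Others named for their values, such as Hist1h1d, Hist1h1e, Hist1h1t, Hist3h2ba and Hist4h4, were chosen after these were seen. The histone genes, the lists and the alternatives were chosen with earlier results of these data known. Alternatives were DESeq2 1.42.0, limma 3.58.1 voom, other scalings and filters, covariates, libraries summed, and each tumour left out in turn.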

Additional observations from a re-analysis of the deposited data

Results flagged for a closer look

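In groups of 4 to 10 samples, a value was picked out where the highest or lowest sample lay far from its nearest neighbour relative to the group's range (Dixon's test at 95%). Of 126 groups tested 59 gave such a value, and 45 of the 59 were translocation tumour 5. Chance picks about 1 in 20 groups when these are independent. Here the groups share libraries, and many genes were named for levels or fold changes that translocation tumour 5 itself sets, so 1 in 20 is no reference for the 59.

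Translocation tumour 5 was picked out in its share of histone counts (1.16%) and in every class, at 3362 CPM of all counts for H1, 979 for H2A, 2620 for H2B, 1435 for H3 and 3241 for H4. Of the linker histone genes it was picked out in Hist1h1a (1584 CPM) and Hist1h1b (539 CPM), and not in Hist1h1c. The H2A genes were Hist1h2ae (42.9 CPM), Hist1h2ai (189 CPM), Hist1h2ak (132 CPM), Hist1h2an (109 CPM) and Hist2h2ac (189.5 CPM). The H2B genes were Hist1h2bb (392 CPM), Hist1h2bc (347 CPM), Hist1h2bf (6.08 CPM), Hist1h2bp (75.2 CPM) and Hist2h2bb (624 CPM). The H3 genes were Hist1h3a (213 CPM), Hist1h3b (214 CPM), Hist1h3c (306 CPM), Hist1h3e (137 CPM) and Hist1h3h (151 CPM). The H4 genes were Hist1h4a (390.3 CPM), Hist1h4c (569 CPM), Hist1h4h (441 CPM), Hist1h4i (37.1 CPM) and Hist1h4m (137 CPM).

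Outside the family, translocation tumour 5 was picked out in the summed S phase genes (2970 CPM) and mitosis genes (3036 CPM). Replication genes were Pcna (325.5 CPM), Ccne2 (166 CPM) and Rfc4 (73.02 CPM), and mitotic genes were Mki67 (233 CPM), Cdk1 (249.7 CPM), Ccnb1 (212 CPM), Ccnb2 (68.8 CPM) and Bub1b (206 CPM). Chaperone genes were Nasp (196 CPM), Chaf1b (60.3 CPM) and Asf1a (59.9 CPM), and Cpsf2, a subunit of the cleavage complex, was 215 CPM. Of the replacement histones H2afz was 620.4 CPM, H2afv 121 CPM and H3f3b 787.5 CPM.

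Rosa26 tumour 2 was picked out within its group in Hist1h1a (152 CPM), Hist1h1b (47.4 CPM), Hist1h3c (24.3 CPM), Hist1h4c (99.8 CPM), Hist2h4 (21.8 CPM) and H2afv (44.3 CPM). It was also picked out in Rn7sk (25136 CPM), Rpph1, the RNA of RNase P (27984 CPM), Rny1 (57.0 CPM) and Rny3 (62.5 CPM), the last 2 being Y RNAs. Translocation tumour 2 was picked out in Rpph1 (43556 CPM) and Rny3 (331 CPM), Rosa26 tumour 1 in Hist2h2be (5.50 CPM), and Rosa26 tumour 4 as the lowest in Cpsf2 (31.4 CPM).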

How the results depend on the processing

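Depth limits the low genes, since 41 of 67 histone genes had fewer than 10 counts in translocation tumour 2, and the 1 muscle library has no spread of its own. No paired analysis was possible because no title number is shared between the genotypes, and with the muscle only translocation tumour 1 shares a leading number, which makes 1 pair. Against the main count of 1 histone gene called higher between genotypes (460 of all genes), DESeq2's Wald test called 8 (2439), limma voom 3 (2677, histone median log2 fold change 0.42), sex as a covariate 26 (2534), Rosa26 tumours 5 and 6 summed 0 (91), and leaving out translocation tumours 2 and 5 and Rosa26 tumour 4 called 0 with a median of 0.17. With 1 tumour left out at a time, 0 to 1 histone genes and 63 to 744 of all genes were called, and the median ran from 0.24 to 2.58. Hist2h4 stayed called with DESeq2 size factors, with no filter, with muscle in the fit, without ribosomal sequence and with 1 CPM required in 5 libraries.

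Against muscle, 22 histone genes (7037 of all genes) were called without translocation tumours 2 and 5 and Rosa26 tumour 4, and 0 to 19 (2838 to 5987) with 1 tumour left out. Of the processing list 0 genes were called with no filter, with muscle in the fit or with Rosa26 tumours 5 and 6 summed, 2 with sex as a covariate, and 0 to 1 with 1 tumour left out. With sex as a covariate 3 chaperone, 6 replacement histone, 8 S phase and 2 mitosis genes were called. DESeq2 and limma voom called 3 replacement histone and 3 S phase genes each, and 3 and 4 RNAs without a poly(A) tail. With 1 tumour left out, 0 to 1 replacement histones and 0 to 1 of these RNAs were called. The muscle share of 0.0251% was 0.0299% without mitochondrial genes, 0.0613% by TMM library size and 0.0194% over genes without a near-identical partner. The cause of these shifts was not tested.

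Directions turned in genes without a call. Under limma voom the log2 fold change was -0.055 for Bub1b, -0.49 for Hist1h1c, -0.59 for Hist1h2ak, -0.99 for Hist1h2bp, -0.19 for Hist1h3h, -0.40 for Hist1h4i, -1.48 for Hist2h3c2, -0.080 for Hist3h2a and -0.072 for Nasp. Without translocation tumours 2 and 5 and Rosa26 tumour 4 it was -0.26 for Bub1b, -0.011 for Hist1h1b, -0.39 for Hist1h1c, -0.11 for Hist1h2ae, -0.024 for Hist1h2ai, -0.65 for Hist1h2ak, -0.20 for Hist1h2an, -0.65 for Hist1h2bp, -0.014 for Hist1h3e, -0.050 for Hist1h3h, -0.87 for Hist1h4i, -0.63 for Hist2h3c2 and -0.22 for Nasp. In the same setting against muscle it was -0.20 for Hist1h2bc, -0.76 for Hist1h3e and -0.39 for Hist1h4c. Hist2h2be was -0.29 with sex as a covariate, and Hist2h3c2 was -0.062 with no filter, -0.040 with muscle in the fit and -0.00013 without ribosomal sequence. With 1 tumour left out at a time, values ran from -0.19 to 2.41 for Bub1b, -0.36 to 2.63 for Hist1h1b, -0.18 to 0.39 for Hist1h1c, -0.26 to 3.21 for Hist1h2ai, -0.93 to 1.85 for Hist1h2ak, -0.029 to 3.78 for Hist1h2an, -1.19 to 0.042 for Hist1h2bf, -0.77 to 4.71 for Hist1h2bp, -0.28 to 3.44 for Hist1h3h, -0.91 to 1.34 for Hist1h4i, -0.10 to 0.53 for Hist2h2be, -0.70 to 0.29 for Hist2h3c2 and -0.23 to 1.55 for Nasp. Against muscle they ran from -0.20 to 0.48 for Hist1h2bc, -0.62 to 0.28 for Hist1h3e and -0.31 to 0.30 for Hist1h4c.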
